A study of Mus musculus with 26 samples.

Results

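IGHV6-6 and IGHV6-3 are heavy-chain variable (V) genes of the mouse IGHV6 family, and their rearrangements were followed through skin, spleen, lymph node and a positive control sample. The members were all deposited sequences whose V call was IGHV6-6 or IGHV6-3, with the technical libraries of each replicate summed. They are 2 of the 188 V genes named in the tables. A clonotype was a distinct V call, J call and junction (in nucleotides) within a replicate, and copies are the count deposited beside each sequence. IGHV6-6 had 29785 and IGHV6-3 had 31398 of 1674869 clonotypes. They held 74522 and 137951 of 4007742 copies.

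The study sequenced rearranged heavy chains of bulk B cells from wild-type (WT) mice, and its title concerns germinal centres that arise within the skin. Skin, spleen and lymph node had 4 biological replicates each, and every replicate was sequenced in 2 technical libraries. All 3 tissues carry the treatment label "S. epidermidies association", which refers to a skin commensal bacterium, and no untreated animals were among the samples. The positive control is 1 sample of WT B cells in 2 technical libraries, with neither a tissue nor a treatment label, so its source is unknown here. Strain and age are not in the labels, and the tissue field reads ear skin for spleen and lymph node libraries too, so tissues were taken from the sample titles. The labels do not say whether replicates with the same number came from the same mouse, and p-values measure only the spread between these samples. Only heavy chains were sequenced, so marker genes of a tissue or of a B cell subset could not be checked.

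Each B cell builds its heavy chain by joining 1 V, 1 D and 1 J gene, and the junction where they meet encodes CDR3, the loop that most often touches antigen. IgM and IgD are the isotypes of B cells that have not switched class, IgA is typical of mucosal responses, and mutations accumulate in the V gene in germinal centres. IGHV6 corresponds to the J606 family, known from mouse antibodies to inulin, a plant fructan. In the RefSeq annotation of GRCm38.p6 (mm10), Ighv6-6 is a V segment at chr12:114434788-114435087 and Ighv6-3 a V segment at chr12:114391712-114392010. The genes lie 42777 bases apart with 2 other V segments of the family, Ighv6-4 and Ighv6-5, between them. Segments of other families were not counted. Ighv6-1 and Ighv6-2 are annotated as pseudogenes. IGHV6-4 had 0 skin, 21 spleen, 11 lymph node and 1 control clonotypes, so nearly all IGHV6 rearrangements of the tissues belonged to these genes.

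The reads start in framework 2, so the comparable part of each V gene is the 141 bases from position 150 of the V numbering used in the files up to the junction. The commonest unmutated stretches of the tissues are shown because every later comparison of the genes rests on telling them apart. Capitals mark the 12 bases at which they differ, which leaves 91.5% identity.
Tissue IGHV6-6*01: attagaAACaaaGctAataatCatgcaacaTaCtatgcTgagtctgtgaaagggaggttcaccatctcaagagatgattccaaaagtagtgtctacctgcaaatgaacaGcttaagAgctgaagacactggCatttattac
Tissue IGHV6-3*01: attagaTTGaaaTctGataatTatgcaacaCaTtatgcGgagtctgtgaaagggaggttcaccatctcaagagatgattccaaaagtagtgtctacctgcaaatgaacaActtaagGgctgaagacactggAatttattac
Of the IGHV6-6*01 sequences of the tissues, 54.4% had no mismatch to the assigned allele, and of the IGHV6-3*01 sequences 57.0%.

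Depth differed between tissues more than any share of the members did. A skin replicate had 275 to 350 clonotypes and 4976 to 7495 copies, a spleen replicate 25645 to 438995 clonotypes and 162168 to 1362176 copies. Lymph node replicates had 27520 to 117561 clonotypes and 93191 to 228065 copies, and the control had 386982 clonotypes and 645566 copies. A lower count in bulk tissue can come from fewer cells or from less RNA per cell, which cannot be told apart. Shares below are percentages of a replicate's clonotypes, with 95% exact (Clopper-Pearson) intervals that cover counting error only.

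IGHV6-6 was a small but regular component of the repertoire, near 1% in lymph node and lower and more variable in skin and spleen. In skin it had 1, 2, 4 and 0 clonotypes in replicates 1 to 4, or 0.286%, 0.625%, 1.24% and 0% of all. With 0 of 275 clonotypes in skin replicate 4, a share of up to 1.09% (3 clonotypes of the total) remains possible there, and the exact interval reaches 1.33%. In spleen it had 54, 6641, 1978 and 1859 clonotypes, or 0.211%, 1.51%, 0.884% and 0.610%. In lymph node it had 342, 1379, 583 and 1145 clonotypes, or 1.24%, 1.17%, 1.12% and 1.19%. The lymph node values lie within a narrow band, while spleen replicates 1 and 2 lie on either side of it. The mean of skin replicates was 0.538% ± 0.534, that of spleen replicates 0.804% ± 0.547 and that of lymph node replicates 1.18% ± 0.0520 (SD, n = 4 each). No neighbours in this order of means differ beyond their spread by the test given below. Skin and lymph node shares touch at the skin replicate with 4 clonotypes, whose interval runs from 0.339% to 3.15%.

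IGHV6-3 averaged close to 2% of clonotypes in each tissue, but its replicates ranged widely in skin and spleen. In skin it had 4, 11, 2 and 11 clonotypes, or 1.14%, 3.44%, 0.621% and 4%. In spleen it had 263, 13658, 5188 and 6111 clonotypes, or 1.03%, 3.11%, 2.32% and 2.01%, and in lymph node 521, 2177, 1023 and 2052, or 1.89%, 1.85%, 1.96% and 2.13%. The ranges of all 3 tissues overlap, and the skin range is the widest, with 2 to 11 clonotypes behind each value. The mean of skin replicates was 2.30% ± 1.67, that of spleen replicates 2.12% ± 0.863 and that of lymph node replicates 1.96% ± 0.124 (SD, n = 4 each). The order of the tissue means has no neighbours that differ beyond this spread.

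**Figure D1:**
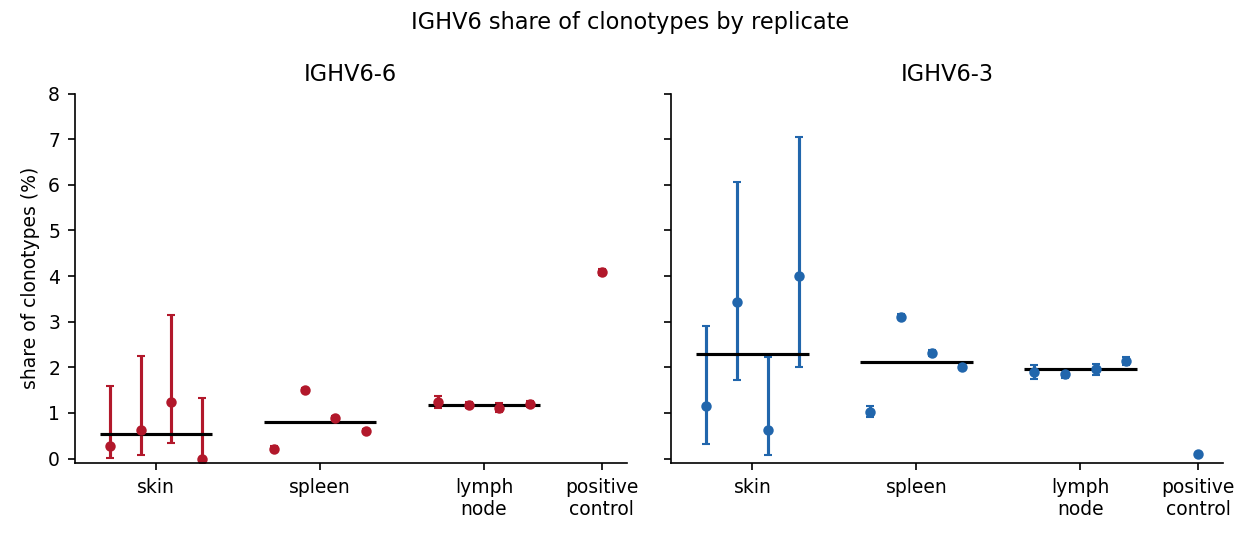
Share of a replicate's clonotypes (percent) that used IGHV6-6 (left) and IGHV6-3 (right) in skin, spleen, lymph node and positive control. Points are biological replicates with 95% exact intervals and bars are group means. IGHV6-6 lies between 1.12% and 1.24% in all 4 lymph node replicates. The control has 4.08% IGHV6-6 and 0.0974% IGHV6-3, under gene names that cover other sequences there.

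Neither gene passed the test between tissues. Clonotypes per V gene were fitted in edgeR's quasi-likelihood test over the 91 V genes that passed its filter on low counts, with Benjamini-Hochberg adjustment and a threshold of 0.05. Skin over spleen, where 7.69% of V genes were called (4.4% higher and 3.3% lower), IGHV6-6 differed by -0.61 on the log2 scale (SE 0.81, adjusted p = 0.694) and IGHV6-3 by 0.03 (SE 0.45, adjusted p = 0.943). Skin over lymph node, where 0% were called, 17 of the 91 had an unadjusted p under 0.05, and DESeq2 called 37. There IGHV6-6 differed by -1.20 (SE 0.78, adjusted p = 0.447) and IGHV6-3 by 0.12 (SE 0.46, adjusted p = 0.924). Spleen over lymph node, where 22% were called (7.69% higher and 14.3% lower), IGHV6-6 differed by -0.58 (SE 0.40, adjusted p = 0.336) and IGHV6-3 by 0.09 (SE 0.32, adjusted p = 0.878). Without spleen replicate 2, IGHV6-6 was called lower in spleen than in lymph node (log2 difference -1.03, edgeR adjusted p = 0.0280), in a fit that called 34.4% of 90 V genes and 22.2% as lower. When clonotypes had to occur in both technical libraries, IGHV6-3 was called lower in skin than in spleen (log2 difference -2.58, edgeR adjusted p = 0.0245), as were 26.8% of the 41 V genes of that fit.

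By copies, IGHV6-6 held 0.261%, 0.267%, 1.45% and 0% in skin, 0.191%, 2.06%, 0.775% and 0.465% in spleen, with 1.73%, 1.56%, 1.20% and 1.41% in lymph node. IGHV6-3 held 0.261%, 0.987%, 0.141% and 3.19% in skin, 1.10%, 6.28%, 2.97% and 2.57% in spleen, with 2.25%, 3.01%, 2.24% and 3.05% in lymph node. The ranges overlap between tissues for both genes, and an exact permutation test of copies called 0% of the 91 V genes in each comparison. At an unadjusted p under 0.05 it listed 22 V genes for skin over spleen, 27 for skin over lymph node and 19 for spleen over lymph node.

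The balance of the genes is given as a description, since its test was not planned. For each IGHV6-3 clonotype, skin replicates had 0.250, 0.182, 2 and 0 IGHV6-6 clonotypes, spleen replicates 0.205, 0.486, 0.381 and 0.304, and lymph node replicates 0.656, 0.633, 0.570 and 0.558. All spleen ratios were below all lymph node ratios. The spleen and lymph node ranges overlapped with clonotypes of both technical libraries only, with lineages in place of clonotypes (highest spleen ratio 0.622, lowest lymph node ratio 0.613) and without single-copy clonotypes (0.489 and 0.474). In the control the ratio was 41.9, but the gene names cover other sequences there, as given below.

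Across the 8 spleen and lymph node replicates, the V genes whose share varied most like that of IGHV6-6 were IGHV10-1 (r = 0.987), IGHV2-9 (r = 0.975) and IGHV2-2 (r = 0.961). For IGHV6-3 they were IGHV5-12 (r = 0.935), IGHV7-4 (r = 0.930) and IGHV7-3 (r = 0.910). The members correlated with each other at r = 0.808. These are descriptions over log2 shares of 8 replicates, which share libraries and depth. Ordered from the highest fold change among the 91 V genes, IGHV6-6 was 58th, 72nd and 70th for skin over spleen, skin over lymph node and spleen over lymph node, and IGHV6-3 was 40th, 33rd and 34th. The surrounding group of 22 tested V genes of the small families from IGHV3 to IGHV14 had 0 genes called in either skin comparison, and 4 higher and 6 lower for spleen over lymph node. Its median log2 difference was 0.01, -0.16 and -0.48 in those comparisons, beside -0.28, -0.19 and -0.12 over all 91. At its ends lay IGHV14-1, 2.13 higher (SE 0.572, edgeR adjusted p = 0.0171), and IGHV3-1, which fell by 2.13 (SE 0.350, edgeR adjusted p = 0.00106). IGHV6-6 and IGHV6-3 were not among the 10 called.

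The positive control carried other sequences under the same gene names. IGHV6-6 had 15797 control clonotypes, 4.08% of all, and IGHV6-3 had 377, or 0.0974%. Of the control's IGHV6-6 sequences, 54.9% were assigned to IGHV6-6*02, against 6.05% in the tissues. IGHV6-6*02 was found without mismatch in 46.5% of its control sequences and in 0 of 1191 tissue sequences. Of 9707 control sequences called IGHV6-6*01, 28 matched that allele exactly, and 5513 carried the stretch with A157G. Of 461 control sequences called IGHV6-3*01, 0 matched exactly, and 96.7% to 99.2% of the control's IGHV6-3 clonotypes carried each of G205A, A237C, G240C, A259G and G266A. Here each letter pair gives the base of the tissue stretch, its position and the base of the control. The stretches of the control follow, with capitals at the bases that differ from the tissue stretch of the same gene.
Control IGHV6-6*02: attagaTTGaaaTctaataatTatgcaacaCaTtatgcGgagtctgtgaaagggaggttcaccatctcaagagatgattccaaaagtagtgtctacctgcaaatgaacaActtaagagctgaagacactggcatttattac
Control IGHV6-6*01: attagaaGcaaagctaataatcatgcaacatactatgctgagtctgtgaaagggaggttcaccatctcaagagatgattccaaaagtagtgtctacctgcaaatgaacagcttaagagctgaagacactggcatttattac
Control IGHV6-3*01: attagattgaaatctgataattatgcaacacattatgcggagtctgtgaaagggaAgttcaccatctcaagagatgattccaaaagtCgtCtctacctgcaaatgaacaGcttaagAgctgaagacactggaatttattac
The last of these was called IGHV6-6*02 in 1019 control sequences and IGHV6-3*01 in 288. At all 9 of its capitals, the control IGHV6-6*02 stretch has the base of the tissue IGHV6-3 stretch. The unmutated tissue stretch of IGHV6-3 was found in 0 control sequences. Levels and mismatches of the control are therefore given beside those of the tissues without a comparison. IGHV6-7, which had 0 clonotypes in the tissues, had 278 in the control.

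Both genes carried short CDR3 loops. IGHV6-6 clonotypes averaged 10.9, 10.5, 10.7 and 10.4 amino acids in spleen replicates 1 to 4 and 10.9, 11.0, 11.0 and 11.0 in lymph node replicates. IGHV6-3 clonotypes averaged 9.92, 9.96, 10.1 and 10.1 in spleen and 10.6, 10.6, 10.5 and 10.5 in lymph node. Clonotypes of all other V genes averaged between 12.0 and 12.4 in these replicates. In spleen and lymph node alike, the members' commonest length was 10 amino acids, while that of the other V genes was 11 in spleen and 12 in lymph node. In the control, IGHV6-6 averaged 9.83 and IGHV6-3 8.24, with 23.1% of its clonotypes at 7 amino acids, beside 11.5 for the rest.

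**Figure D2:**
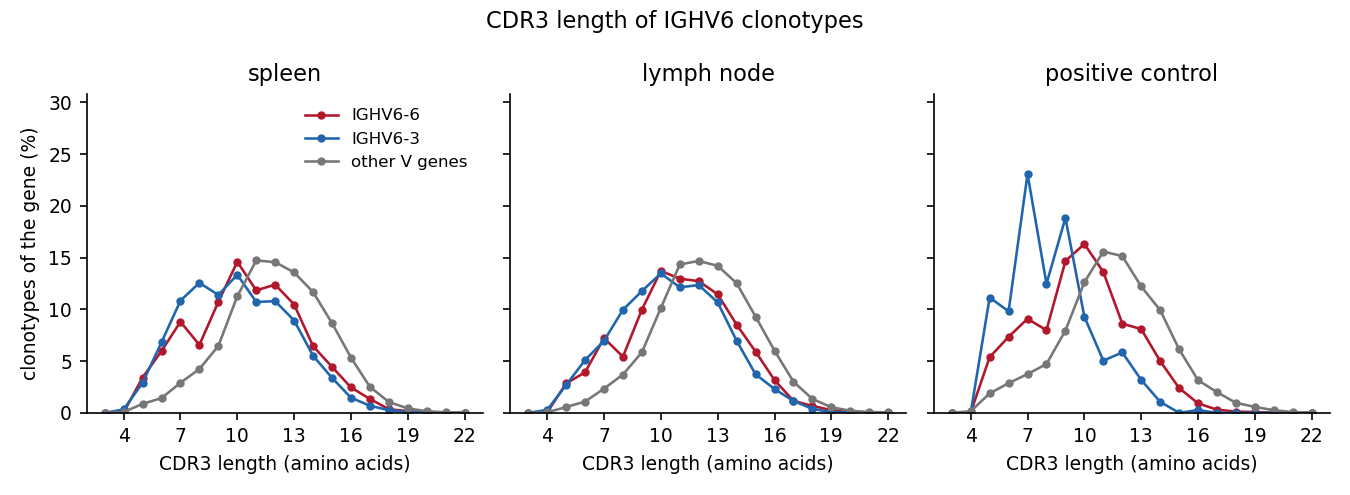
Percent of clonotypes at each CDR3 length (amino acids) for IGHV6-6, IGHV6-3 and other V genes in spleen, lymph node and positive control. The members peak at 10 amino acids in spleen and lymph node, and the other V genes at 11 and 12; in the control IGHV6-3 peaks at 7.

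The difference from other V genes was tested within replicates, by flipping the sign of the 8 spleen and lymph node differences (exact test, smallest p 0.0078), over every V gene with enough clonotypes in all 8. If a number marks 1 mouse, its spleen and lymph node count once, and the 4 numbers then allow no p below 0.125 and no call in any such comparison given here. IGHV6-6 had a minimum of 54 clonotypes and was tested among 61 V genes with at least 50, IGHV6-3 among 48 with at least 100. IGHV6-6 loops were shorter than those of the other genes in 8 of 8 replicates (difference -1.35 amino acids, adjusted p = 0.0140, exact test), the second shortest of the 61. IGHV6-3 loops were shorter in 8 of 8 too (difference -1.91, adjusted p = 0.0139, exact test), the shortest of the 48. Such a call was common, since 32.8% and 35.4% of the V genes in the respective sets were called shorter. IGHV6-6 loops were longer than those of IGHV6-3 by 0.531 amino acids in 8 of 8 replicates (adjusted p = 0.0195 over 10 measures, exact test). With clonotypes of both technical libraries only, the differences from other V genes were -1.86 for IGHV6-6 (adjusted p = 0.0844) and -2.40 for IGHV6-3 (adjusted p = 0.0688, exact tests), larger but not called.

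The short loops were found with every J gene. With IGHJ1, IGHJ2, IGHJ3 and IGHJ4, IGHV6-6 loops averaged 12.1, 9.52, 9.71 and 11.7 amino acids, and those of other V genes 13.2, 11.0, 11.3 and 12.9. IGHV6-3 loops averaged 11.6, 9.19, 9.58 and 11.3, below the other V genes in 8 of 8 replicates with each J gene, as IGHV6-6 loops were. Fewer V bases entered the junction than in most V genes. IGHV6-6 contributed 7.50 bases on average, the second lowest of 61 V genes, and IGHV6-3 contributed 6.86, the lowest, where the median V gene had 8.62 and the highest 15.5. The germline ends read TGTACCAGG for IGHV6-6 and TGCACAGG for IGHV6-3. The first 6 of these bases opened 73.1% of spleen and 77.8% of lymph node IGHV6-6 sequences, and 73.3% and 75.5% of those of IGHV6-3. In the control, 0.649% of IGHV6-3 sequences opened with TGCACA.

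Between spleen and lymph node, mean loop lengths of both genes were lower in spleen, but neither was called. IGHV6-6 averaged 10.6 ± 0.209 amino acids in spleen, against 11.0 ± 0.0535 in lymph node (SD, n = 4 each, exact permutation test, adjusted p = 0.0646). IGHV6-3 averaged 10.0 ± 0.0960 in spleen, against 10.5 ± 0.0663 in lymph node (SD, n = 4 each, adjusted p = 0.0596, exact permutation test). With 4 against 4 replicates the smallest p is 0.0286, so a call needs most V genes to reach it. 0% of V genes were called, although 27 of 61 and 23 of 48 had an unadjusted p under 0.05.

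The members chose J genes differently. IGHV6-6 joined IGHJ2 in 24.1%, 36.03%, 32.9% and 35.1% of spleen clonotypes and in 33.3%, 30.5%, 29.8% and 32.8% of lymph node clonotypes. IGHV6-3 joined it in 39.5%, 43.3%, 42.3% and 41.7% in spleen and 39.5%, 39.9%, 39.7% and 38.7% in lymph node, where the other V genes had 31.5% to 34.0%. IGHV6-6 thus lay on both sides of the rest, and IGHV6-3 above it in all 8 replicates. The excess of IGHV6-3 was 7.69 percentage points (adjusted p = 0.0163, exact test), the highest of 48 V genes, of which 39.6% were called higher. Its IGHJ4 share was lower (difference -7.69 points, below in 8 of 8, adjusted p = 0.0156, exact test, 41.7% of V genes called lower). Its IGHJ1 share differed by -2.81 points, below in 7 of 8 (adjusted p = 0.0489, exact test, 31.2% called lower).

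Of IGHV6-6, IGHJ3 alone was called against the other V genes, with 3.13 points more in 8 of 8 replicates (adjusted p = 0.0280, exact test, 11.5% of 61 V genes called higher). IGHV6-3 had 2.82 points more IGHJ3 in 8 of 8 (adjusted p = 0.0313, exact test, 12.5% of 48 called higher). They ranked 58th of 61 and 46th of 48 from the lowest difference. The differences of IGHV6-6 for IGHJ1 (1.03 points, adjusted p = 0.1003), IGHJ2 (-1.25 points, adjusted p = 0.450) and IGHJ4 (-2.91 points, adjusted p = 0.0662) were not called in the exact test. Set directly against IGHV6-3 within replicates, IGHV6-6 had 3.78 points more IGHJ1, less IGHJ2 (difference -8.77 points) and 4.66 points more IGHJ4, each in 8 of 8 (each adjusted p = 0.0195 over 10 measures, exact test). Their IGHJ3 shares differed by 0.339 points (adjusted p = 0.625, exact test). None of these J calls held with clonotypes of both technical libraries only.

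IGHJ3 and IGHJ4 use also differed between the organs, as it did for most V genes tested. IGHV6-6 joined IGHJ3 in 18.5%, 15.9%, 16.6% and 15.7% of spleen clonotypes, against 9.65%, 13.9%, 12.3% and 11.0% in lymph node. IGHV6-3 did so in 20.5%, 14.5%, 15.4% and 17.3% in spleen, against 8.64%, 13.1%, 10.9% and 10.6% in lymph node. The organs do not overlap for either gene. Both were called (adjusted p = 0.0356 and 0.0343, exact permutation test), as were 80.3% of the 61 and 83.3% of the 48 V genes. IGHJ4 moved the other way. IGHV6-6 joined it in 31.5%, 27.9%, 29.1% and 28.6% in spleen, against 36.3%, 34.8%, 38.6% and 35.7% in lymph node (adjusted p = 0.0405, exact permutation test, 70.5% of V genes called). IGHV6-3 joined it in 25.1%, 25.3%, 25.5% and 25.0% in spleen, against 32.4%, 28.8%, 31.9% and 31.2% in lymph node (adjusted p = 0.0392, exact permutation test, 72.9% called). IGHJ1 and IGHJ2 shares were not called between the organs for either gene, as for 0% of V genes. At an unadjusted p under 0.05 this exact permutation test listed 12 and 4 of the 61, and 10 and 4 of the 48.

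**Figure D3:**
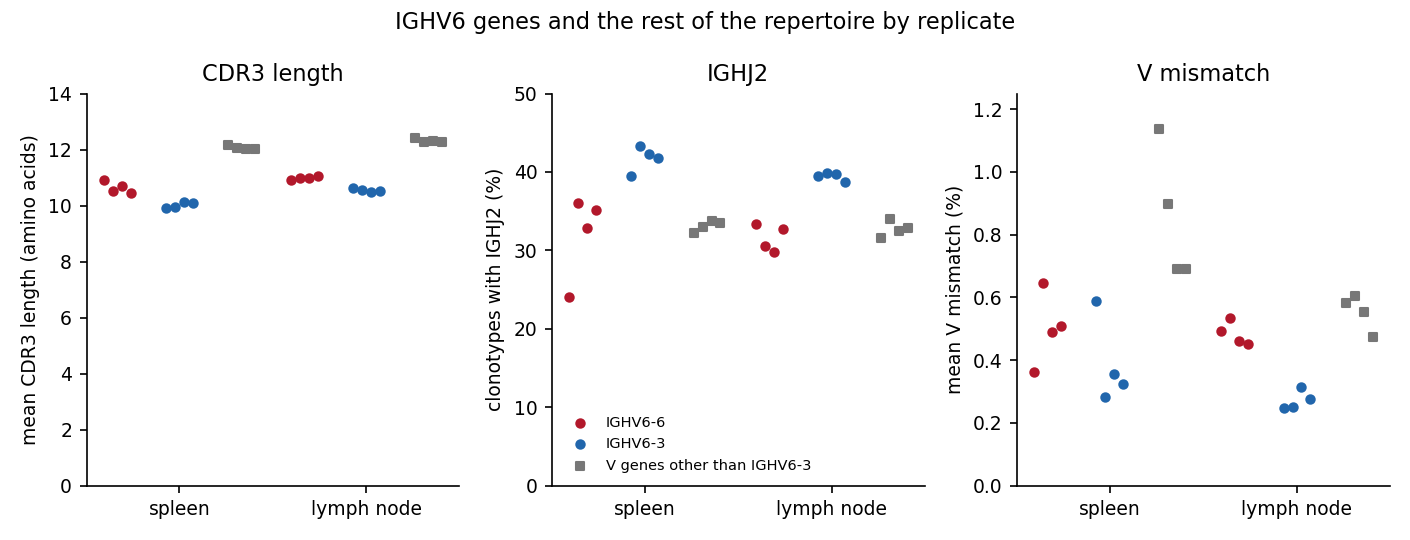
Mean CDR3 length (amino acids), IGHJ2 share (percent of clonotypes) and V mismatch (percent of V bases) of IGHV6-6, IGHV6-3 and, as grey squares, V genes other than IGHV6-3, with 1 point for each replicate of spleen and lymph node. Within each replicate both members lie below the other V genes in CDR3 length and V mismatch, and IGHV6-3 lies above them in IGHJ2. Across lymph node replicates, the V mismatch ranges of IGHV6-6 and the other V genes overlap.

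V mismatch is the percentage of aligned V bases that differ from the assigned allele, averaged over clonotypes, and includes both mutation and sequencing error. IGHV6-6 had 0.361%, 0.646%, 0.491% and 0.510% in spleen and 0.492%, 0.534%, 0.460% and 0.452% in lymph node. IGHV6-3 had 0.590%, 0.284%, 0.357% and 0.323% in spleen and 0.248%, 0.252%, 0.314% and 0.277% in lymph node. Other V genes had 1.14%, 0.898%, 0.689% and 0.690% in spleen and 0.581%, 0.606%, 0.553% and 0.473% in lymph node. Both members were below the other V genes in 8 of 8 replicates. IGHV6-6 differed by -0.204 points (adjusted p = 0.0154, exact test, 36.1% of 61 V genes called lower) and IGHV6-3 by -0.373 points (adjusted p = 0.0163, exact test, 31.2% of 48 called lower). Among clonotypes with IgM or IgD only, IGHV6-6 differed by -0.0947 points (adjusted p = 0.0129, exact test, 47.5% called lower) and IGHV6-3 by -0.281 points (adjusted p = 0.0134, exact test, 43.8% called lower).

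These mismatch differences rested in part on clonotypes seen once. Without single-copy clonotypes, the difference of IGHV6-3 from other V genes was -0.169 points overall (adjusted p = 0.0563, exact test) and -0.00916 points with IgM or IgD only (adjusted p = 0.815, exact test). For IGHV6-6 the IgM or IgD difference was then 0.0902 points, on the other side of 0. Between spleen and lymph node the mismatch was not called for IGHV6-6 (0.502% and 0.484%, adjusted p = 0.824) or for IGHV6-3 (0.388% ± 0.138 and 0.273% ± 0.0305, SD, n = 4 each, adjusted p = 0.144, exact permutation tests). 0% of V genes were called, with 11 of 61 and 10 of 48 at an unadjusted p under 0.05. Summed over tissue sequences, without the switched sequences described next, replacement mismatches outnumbered silent ones 1.97 to 1 in IGHV6-6 and 2.06 to 1 in IGHV6-3.

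Some IGHV6-6 sequences combined both genes along their length. Of the tissue sequences, 1055 held IGHV6-3 bases at the 5′ informative positions and IGHV6-6 bases at the 3′ ones, and 876 held the opposite order. IGHV6-6 was the V call of 1016 and 873 of them. In the first kind, 63.7% of junctions also occurred in an unswitched IGHV6-6 sequence of the same replicate and 8.91% in an IGHV6-3 sequence. In the second kind, 67.0% occurred in an IGHV6-3 sequence and 9.70% in an IGHV6-6 sequence. For unswitched sequences, 5.92% of IGHV6-6 junctions occurred in IGHV6-3, and 4.60% of IGHV6-3 junctions in IGHV6-6. The junction therefore matched the gene at the 3′ end of the V stretch in most of them. Single-copy sequences made up 91.1% and 90.4% of the switched kinds, against 81.1% and 80.7% of unswitched IGHV6-6 and IGHV6-3 sequences. Switched sequences made up 5.63% to 11.7% of IGHV6-6 sequences in spleen replicates, 6.08% to 8.73% in lymph node replicates and 0 in skin, and their origin was not tested.

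**Figure D4:**
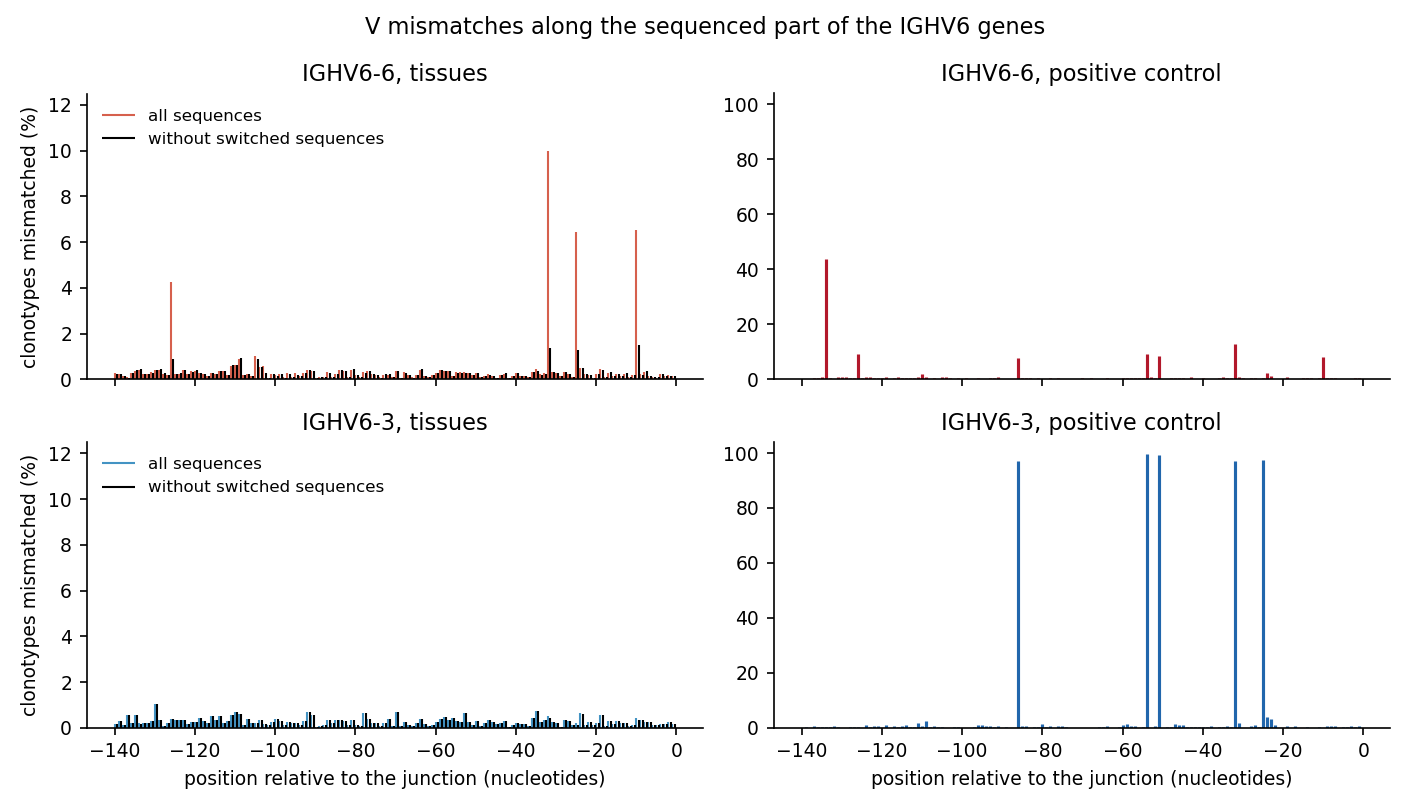
Percent of clonotypes mismatched to the assigned allele at each V position, counted as distance in bases to the junction, for IGHV6-6 (top) and IGHV6-3 (bottom), in tissues with and without switched sequences and in the control. Peaks of IGHV6-6 at bases that distinguish the genes shrink without switched sequences, which were picked by those bases. The IGHV6-3 profile of the control stands near 100% at 5 positions.

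Switched sequences were picked by the bases at which the genes differ, so a lower IGHV6-6 mismatch without them follows from that choice. At positions 259, 281 and 266, where the genes differ, 10.0%, 6.54% and 6.43% of IGHV6-6 clonotypes were mismatched with them, and 1.37%, 1.49% and 1.30% without them. In spleen without them, the commonest mismatch at these positions was still the IGHV6-3 base, in 1.11%, 1.57% and 1.36% of clonotypes. IGHV6-6 exceeded IGHV6-3 in mismatch by 0.163 points, in 7 of 8 replicates (adjusted p = 0.0781, exact test), and with IgM or IgD only by 0.181 points, in 7 of 8 (adjusted p = 0.0313 over 10 measures, exact test). Without switched sequences these differences were 0.00176 points (adjusted p = 0.992) and 0.0181 points (adjusted p = 0.713, exact tests), with IGHV6-6 above in 6 of 8 replicates for each. Spleen replicate 1 lay furthest from the rest (-0.329 and -0.141), and without it the differences were 0.0491 (adjusted p = 0.0781) and 0.0408 points (adjusted p = 0.0625, exact tests), an alternative chosen after seeing the data. Against other V genes, IGHV6-6 without switched sequences differed by -0.366 points, and by -0.259 points with IgM or IgD only (adjusted p = 0.0154 and 0.0129, exact test). Switched sequences were taken out of the members alone and not of other V genes, so the larger difference is built into this comparison.

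IgA marked more clonotypes of both genes in spleen than in lymph node, as it did for almost every V gene. IGHV6-6 had IgA in 14.8%, 5.63%, 2.83% and 2.90% of spleen clonotypes, against 0.585%, 0.363%, 0.858% and 0.175% in lymph node. IGHV6-3 had IgA in 14.4%, 3.94%, 2.39% and 3.14% in spleen, against 0.384%, 0.184%, 1.27% and 0.828% in lymph node. The organs do not overlap, and spleen replicate 1 is highest for both genes. The means were 6.55% ± 5.66 in spleen, against 0.495% ± 0.294 in lymph node, for IGHV6-6 (SD, n = 4 each, adjusted p = 0.0300, exact permutation test, 95.1% of 61 V genes called). They were 5.98% ± 5.68 in spleen, against 0.667% ± 0.485 in lymph node, for IGHV6-3 (SD, n = 4 each, adjusted p = 0.0298, exact permutation test, 95.8% of 48 V genes called). Against other V genes the IgA share was not called for IGHV6-6 (-0.762 points, adjusted p = 0.328, 21.3% of V genes called) or IGHV6-3 (-0.978 points, adjusted p = 0.349, 20.8% called, exact tests). Weighted by copies, IGHV6-6 was called lower (-8.21 points, adjusted p = 0.0265, exact test), as were 31.1% of the 61 V genes, while 1.64% were called higher (32.8% in all). The members did not separate from each other either (0.197 points, adjusted p = 0.634, exact test).

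The isotype of a sequence was not always stable between technical libraries. Of 87425 member sequences, 0 occurred more than once within a library. Of the 5587 found in both technical libraries of a replicate, 644, or 11.5%, had different isotypes in them. The largest IGHV6-3 clonotype of spleen replicate 2 had 7561 copies labelled IgA in library 1 and 7743 labelled IgM in library 2. For IGHV6-6 the share with different isotypes was 8.53% in spleen, 15.2% in lymph node and 22.1% in the control. For IGHV6-3 it was 6.83%, 13.3% and 18.2%. These shares run over sequences of every isotype, and the IgA label was less stable. Of the sequences found in both libraries, 804 had IgA in at least 1 library and 503 in both. In spleen these numbers were 206 and 153 for IGHV6-6, and 348 and 235 for IGHV6-3. In lymph node they were 6 and 6 for IGHV6-6, and 6 and 5 for IGHV6-3. The part of this disagreement in the IgA shares was not tested.

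The most abundant IGHV6-6 clonotypes found in both technical libraries were mostly unswitched and close to the germline. Their junctions are printed with the leading bases that match the germline V end in capitals.
Spleen replicate 2: TGTACCccaactgggacgagctactgg
Lymph node replicate 2: TGTACCAcctactataatcttttctgg
Lymph node replicate 4: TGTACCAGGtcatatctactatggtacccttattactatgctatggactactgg
Control: TGTACCActgggtttgcttactgg
The spleen clonotype had 4102 copies, all IgM, or 14.6% of the gene's copies in that replicate. Of these, 3987 were in library 1, where 1 sequence with 0 mismatches had 3863. The 115 copies of library 2 were 1 other sequence with 2 mismatches, so the libraries shared the junction but not the leading sequence. In lymph node replicate 4 the largest had 1087 copies, all IgM, or 35.4% of the gene's copies, and a CDR3 of 16 amino acids. The largest of lymph node replicate 2 differed from these, with 502 copies of which 99.8% were IgG1 and a V mismatch of 2.05%. The largest of the other spleen and lymph node replicates had 56 to 343 copies, those of spleen replicates 1 and 4 being IgA. The control's largest had 744 copies, or 2.52% of the gene's control copies. In skin, 0 IGHV6-6 clonotypes occurred in both technical libraries.

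Large IGHV6-3 clonotypes were found in both organs, and several of the most abundant carried an IgA label in at least 1 technical library. They are printed in the same way.
Spleen replicate 1: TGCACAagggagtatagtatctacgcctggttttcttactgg
Spleen replicate 2: TGCACAGGagagtgtaactactgg
Lymph node replicate 2: TGCACcttattgaatgactactgg
Lymph node replicate 4: TGCACcggcgatctactccgtgactactgg
The first had 413 copies with a V mismatch of 2.02%, of which library 1 held 154 labelled IgM and 40 labelled IgA, and library 2 held 219, all labelled IgA. The spleen replicate 2 clonotype had 15304 copies, or 17.9% of the gene's copies there, and a mismatch of 0%, and its isotype changed between libraries as given above. The lymph node replicate 2 clonotype had 1504 copies, 752 in each library, all IgM and unmutated, or 21.9% of the gene's copies. The lymph node replicate 4 clonotype had 2337 copies, or 35.2%, with 1201 labelled IgA in 1 library and 1136 labelled IgM in the other.

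Few clonotypes recurred between replicates. Over the 12 tissue replicates, IGHV6-6 had 13705 different clonotypes, of which 255, or 1.86%, occurred in at least 2 replicates and none in more than 4. IGHV6-3 had 30054, of which 822, or 2.74%, occurred in at least 2 and none in more than 6. Other V genes had 1220208, of which 1.60% did, with a most of 9. These shares also move with depth and were not tested. The most shared clonotypes are printed with the V end in capitals.
IGHV6-6 with IGHJ2: TGTACCtatagtaactactgg
IGHV6-6 with IGHJ1: TGTACCAGGtacttcgatgtctgg
IGHV6-3 with IGHJ1: TGCACAGGcgggtacttcgatgtctgg
IGHV6-3 with IGHJ4: TGCACAGatgctatggactactgg
The first occurred in 3 spleen and 1 lymph node replicates with 1379 copies, and the second in 2 of each with 27 copies and 7 in the control. The IGHV6-3 clonotypes occurred in 3 spleen and 3 lymph node replicates each, with 121 and 66 copies, and 0 in the control. In the order printed, a replicate held 1 to 1253, 2 to 14, 1 to 93 and 1 to 43 copies of these 4 clonotypes. Their CDR3 loops had 5, 6, 7 and 6 amino acids, and 0 skin replicates held any of them.

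In skin, IGHV6-6 was represented by 7 clonotypes with 1 to 46 copies, and IGHV6-3 by 28 with 1 to 131 copies. All 7 of IGHV6-6 and 26 of 28 of IGHV6-3 were found in 1 technical library only, and 2 and 17 had a single copy. Of IGHV6-6, 6 were IgM and 1, the largest with 46 copies in replicate 3, was IgD. Of IGHV6-3, 24 were IgM, 1 was IgD and 3 were IgA, and 0 of either gene carried IgG. Of the IGHV6-6 clonotypes, 4 were unmutated, and of those of IGHV6-3, 10 were.

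Some skin clonotypes were also found in a lymphoid organ of the same replicate number. Of the 28 IGHV6-3 clonotypes, 5, or 17.9%, occurred in the spleen of the same number, 3 of these also in its lymph node, and 3 occurred in an organ of another number. The 5 include a pair in replicate 2 and a pair in replicate 4 whose junctions differ by 1 base, so they need not be separate lineages. Of the 7 IGHV6-6 clonotypes, 0 occurred in an organ of the same number and 1 in one of another. Of 1232 skin clonotypes of other V genes, 150, or 12.2%, occurred in an organ of the same number and 41 in one of another. The difference between these shares was not tested, nor was exchange of sequences between libraries.

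In replicate 2, skin shared 2 larger IGHV6-3 clonotypes with spleen and lymph node, both IgM in skin. They are shown because they differ in how far their V stretches agree between tissues.
Unmutated in skin: TGCACAGGagggtacttcgatgtctgg
Mutated in skin: TGCACAGatgtgggacaaggctactgg
The first had 24 skin copies, 37 spleen copies and 2 lymph node copies, and all skin copies had the germline stretch, which 33 spleen copies also had. It also occurred in 2 spleens of other numbers. The second had 9 skin copies, 541 spleen copies and 92 lymph node copies. All 9 skin copies carried T170C and A256T, a stretch with 0 copies in spleen or lymph node, where the unmutated stretch had 160 and 74 copies. The largest IGHV6-3 clonotype found in both technical libraries of skin replicate 2 had 22 copies, all IgM, and occurred in no other tissue replicate.

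One mutated IgA clonotype of IGHV6-3 dominated the gene in skin replicate 4 and was present in spleen and lymph node of the same number. Its junction, joined to IGHJ4 with a CDR3 of 14 amino acids, is printed with the V end in capitals.
IGHV6-3 IgA clonotype: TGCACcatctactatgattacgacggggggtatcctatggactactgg
It had 131 copies in skin, 40 and 91 in the technical libraries, which was 72.8% of the gene's skin copies in that replicate. In spleen it had 1388 copies, 740 and 648 by library, the largest IGHV6-3 clonotype there with 7.77% of the gene's copies. In lymph node it had 386 copies, 172 and 214 by library. All copies were IgA in all 3 tissues, and its V mismatch was 2.88% for its skin, 2.72% for its spleen and 2.07% for its lymph node copies. It had 0 copies in the other 9 tissue replicates.

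The V stretches of this clonotype show how its versions were spread over the tissues. Capitals mark the bases that differ from the unmutated tissue stretch of IGHV6-3 given above.
Stretch 1: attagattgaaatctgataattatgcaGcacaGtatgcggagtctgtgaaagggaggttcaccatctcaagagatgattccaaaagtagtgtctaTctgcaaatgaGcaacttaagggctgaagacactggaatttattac
Stretch 2: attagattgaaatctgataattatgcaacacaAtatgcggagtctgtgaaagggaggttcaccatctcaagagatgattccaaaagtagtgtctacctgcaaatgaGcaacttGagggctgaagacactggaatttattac
Stretch 3: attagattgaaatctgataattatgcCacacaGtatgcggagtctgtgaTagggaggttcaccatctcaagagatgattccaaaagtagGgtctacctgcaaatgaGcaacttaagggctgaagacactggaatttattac
Stretch 4: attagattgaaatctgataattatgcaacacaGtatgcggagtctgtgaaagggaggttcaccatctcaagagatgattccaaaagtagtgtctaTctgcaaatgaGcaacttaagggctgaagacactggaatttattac
Stretch 1 carries A177G, T182G, C245T and A256G. It made up 105 skin copies (80.2% of the clonotype there), 639 spleen copies (46.0%) and 0 lymph node copies. Stretch 2 carries T182A, A256G and A263G. It made up 0 skin copies, 99 spleen copies (7.13%) and 374 lymph node copies (96.9%). Skin and lymph node thus held different leading stretches, and spleen held both.

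Stretches 3 and 4 were found in spleen alone, with 179 copies (12.9%) and 150 copies (10.8%). Stretch 3 carries A176C, T182G, A199T, T239G and A256G, and stretch 4 carries T182G, C245T and A256G, so that stretch 1 differs from stretch 4 by A177G. All 131 skin copies carried the 4 substitutions of stretch 1, on 4 different sequences. A256G was on 95.7% of spleen and 99.7% of lymph node copies. Counted by V stretch alone, spleen held 59 different versions of the clonotype, lymph node 9 and skin 3. A second IgA clonotype of IGHV6-3 and IGHJ4, also with a CDR3 of 14 amino acids, had 1 copy in skin and 2 in spleen of the same number. Its junction differs by 1 base from that of the first, so it may be a version of the same lineage. Its skin copy carried T167C beside the 4 substitutions of stretch 1.

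**Figure D5:**
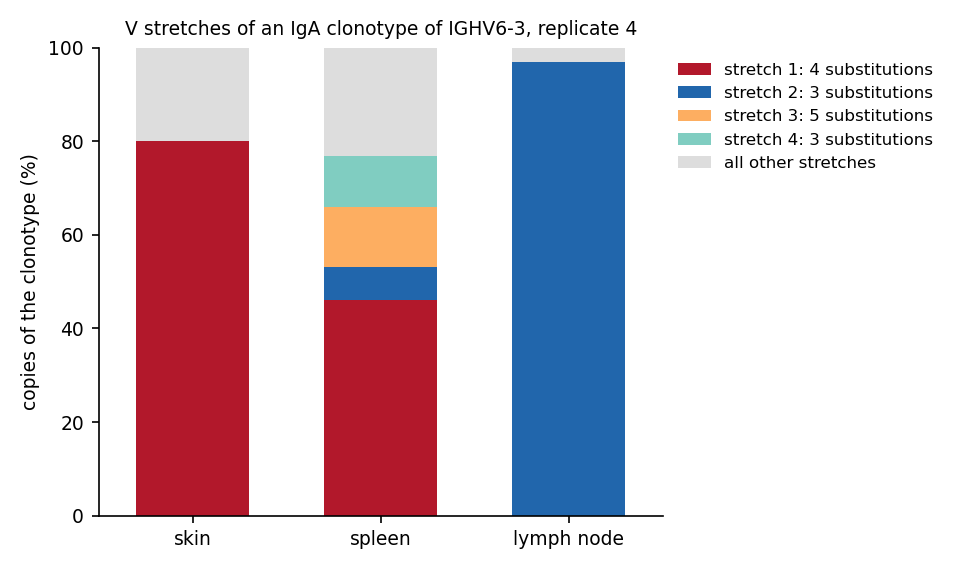
Percent of the copies of the IGHV6-3 IgA clonotype that carried stretches 1 to 4 or another stretch, in skin, spleen and lymph node of replicate 4. Stretch 1 has 80.2% of copies in skin and 46.0% in spleen, and stretch 2 has 96.9% in lymph node.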

How the data were processed

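Per the labels' protocols, heavy chains were amplified by iRepertoire with constant-region primers carrying a molecular identifier of 10 bases and a V primer mix, and read from framework 2 into the constant region on an Illumina NextSeq, with IgG2 subclasses together. The authors deposited 1 annotated table per library with a count of copies for each sequence. The headers do not say whether a copy is a molecular identifier or a read. The build is mm10, per the submitters' processing notes, and the aligner was not given in the sources used here. Other deposited columns, used as measures, were V, J and isotype calls, the junction and the listed V mismatches.

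From these 26 tables, technical libraries were summed and clonotypes counted per replicate. A library held 166 to 284030 sequences. V gene counts were tested in edgeR 4.0.16 (R 4.3.3, TMM scaling, filterByExpr, all 12 tissue replicates, tissue as the only term), with DESeq2 1.42.0 as an alternative. TMM factors ran from 0.837 to 1.19. Spleen and lymph node measures were tested by exact two-sided permutation of 70 splits. Members and other V genes were compared by exact two-sided sign flips over 8 replicates, which are not independent if a number marks 1 mouse. p-values were adjusted by Benjamini-Hochberg over the V genes of a measure. IGHV6-6 fell below the planned minimum of 100 clonotypes in spleen replicate 1, so a minimum of 50 was added after seeing the data. IgG2 shares and the mismatch of IgA clonotypes were tested too and gave no call for either gene. On simulated data with 20 of 91 V genes changed by 2 on the log2 scale, edgeR recovered 13 for skin over spleen, 11 for skin over lymph node and 20 for spleen over lymph node, with 0, 0 and 1 false calls. Python 3.11.15, pandas 2.3.3, numpy 2.4.6, scipy 1.17.1 and matplotlib 3.10.9 did the rest.

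V genes were named as most alike by the 3 highest Pearson correlations of edgeR log2 CPM (prior count 2). Clonotypes were named as the largest found in both technical libraries of a replicate and as the 3 found in most tissue replicates per gene. Switched sequences, the clonotypes traced from skin and the largest of the single replicates shown were chosen after seeing the data. Members and lists were chosen with earlier results of these data known. Mice without the bacterium were not analysed here.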

Additional observations from a re-analysis of the deposited data

Results flagged for a closer look

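Of 67 groups of replicate values of the members, 6 had 1 replicate far from the others of its group, and chance flags about 1 in 20 groups. The IgA share of IGHV6-3 clonotypes was 27.3% in skin replicate 4, on 3 of 11 clonotypes, and 0% in the other skin replicates. These 3 all had IGHJ4 and a CDR3 of 14 amino acids, so they need not be separate lineages. The V mismatch of IGHV6-3 clonotypes with IgM or IgD only was 1.01% in skin replicate 3, on 2 clonotypes, and 0.419% to 0.504% in the others. IGHV6-3 joined IGHJ1 in 36.4% of clonotypes of skin replicate 2 and in 0% in the others. In spleen replicate 1, 14.4% of IGHV6-3 clonotypes had IgA, against 2.39% to 3.94% in the other spleen replicates. IGHV6-6 joined IGHJ1 in 19.2% of clonotypes of lymph node replicate 3 and in 20.5% to 20.8% in the others. Single-copy clonotypes made up 27.8% of IGHV6-6 clonotypes in spleen replicate 1, against 75.6% to 81.2% in the others. Outside the tissue comparisons, IGHV6-7 had 278 clonotypes in the positive control and 0 in the tissues.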

How the results depend on the processing

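For 55 results of the members, 561 of 768 alternative values kept direction and side of the threshold, or moved within the spread or by under 1.5 times where there was no test. Of the rest, 112 lost and 5 gained a call, 50 changed sign and 40 moved further. Causes were not tested except where fewer replicates or V genes limited the smallest p. Clonotype differences are log2, CDR3 differences are amino acids and all others percentage points.

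The number of V genes called between tissues (7 for skin over spleen, 0 for skin over lymph node, 20 for spleen over lymph node) depended on the setting. DESeq2 called 48, 37 and 34, clonotypes of both technical libraries gave 11, 10 and 13, and copies per V gene gave 13, 13 and 0 (5 at an unadjusted p under 0.05). For skin over spleen, edgeR called 3 with lineages in place of clonotypes, 12 with relative log expression factors and 0 in a fit of only the tissues compared (16 at an unadjusted p under 0.05). For skin over lymph node it called 2 without a filter, 5 without scaling factors, 1 with relative log expression factors and 1 without single-copy clonotypes. For spleen over lymph node it called 38 in a fit of only those tissues and 12 after thinning to equal copies.

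IGHV6-3 changed sign for skin over spleen without a filter (-0.27) and, for skin over spleen and skin over lymph node, with copies per V gene (-1.63, -1.07), without single-copy clonotypes (-1.10, -0.73), after thinning, where values depend on the random draws (-0.57, -0.24), and with clonotypes of both technical libraries (-2.58, -1.93). IGHV6-6 did so for spleen over lymph node with clonotypes of both libraries (0.023).

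With clonotypes of both technical libraries, spleen over lymph node gave -0.246, 11.7 and -6.33 for IGHJ2, IGHJ3 and IGHJ4 of IGHV6-3, and -6.82, 18.3 and -24.8 for IGHJ1, IGHJ3 and IGHJ4 of IGHV6-6, whose mismatch differed by -0.00416. Against other V genes IGHV6-6 gave -0.411 for mismatch, 0.0792 with IgM or IgD only, -1.86 for CDR3 and -4.43, 3.53 and 9.09 for IGHJ1, IGHJ2 and IGHJ3. IGHV6-3 gave -0.462, 0.0481, -2.40 and -5.95, 11.2, 2.65 and -7.89 for IGHJ1 to IGHJ4. IGHV6-6 minus IGHV6-3 gave 0.0310 for mismatch with IgM or IgD only, 0.478 for CDR3 and 1.37, -7.27 and -0.525 for IGHJ1, IGHJ2 and IGHJ4. None of these passed.

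With copies as weights, spleen over lymph node gave 14.6 for IgA and -6.99, 10.3 and -0.968 for IGHJ2, IGHJ3 and IGHJ4 of IGHV6-3, and -0.0674 for mismatch, -0.492 for IGHJ3 and -14.3 for IGHJ4 of IGHV6-6. Against other V genes IGHV6-6 gave -8.21 for IgA (called, adjusted p = 0.0265, exact test), -0.484 for mismatch, -0.0575 with IgM or IgD only and -2.87, 3.18 and 2.57 for IGHJ1, IGHJ2 and IGHJ3. IGHV6-3 gave -0.447 for mismatch and -5.30, 0.0313 and -8.39 for IGHJ1, IGHJ3 and IGHJ4. IGHV6-6 minus IGHV6-3 gave -5.18 for IgA, -0.0502 for mismatch, 0.0401 with IgM or IgD only, 0.836 for CDR3 and 2.29, -10.1 and 5.32 for IGHJ1, IGHJ2 and IGHJ4.

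Without single-copy clonotypes, spleen over lymph node gave 0.151 for the mismatch of IGHV6-3 (called, adjusted p = 0.0473, exact permutation test) and -0.361, 6.01 and -9.25 for IGHJ1, IGHJ3 and IGHJ4 of IGHV6-6. Against other V genes IGHV6-6 gave -0.0728 for mismatch, 0.0902 with IgM or IgD only and 3.11 for IGHJ3, and IGHV6-3 gave -0.169, -0.00916 and, for IGHJ1, -3.35. IGHV6-6 minus IGHV6-3 in mismatch with IgM or IgD only was 0.0971, 0.0181 without switched sequences and 0.0408 without these and spleen replicate 1, alternatives chosen after seeing the data.

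Same-numbered samples deviated together weakly (r from -0.17 to 0.26), which does not settle whether numbers mark mice. Of skin clonotypes of other V genes, 12.2% occurred in an organ of the same number and 3.33% in one of another. With the replicate block, edgeR called 1 V gene for skin over spleen and 11 for spleen over lymph node. With spleen and lymph node of a number averaged as 1 replicate block, values stayed as reported, but 4 numbers allow no p below 0.125, so the calls against other V genes were lost for IGHV6-6 (-0.204, -0.0947, -1.35 and 3.13) and IGHV6-3 (-0.373, -0.281, -1.91, -2.81, 7.69, 2.82 and -7.69), and between them (0.181, 0.531, 3.78, -8.77 and 4.66).

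Leaving out 1 replicate at a time changed 99 of 476 values. IGHV6-3 clonotypes ran from -0.66 to 0.23 for skin over spleen, -0.47 to 0.24 for skin over lymph node and -0.12 to 0.39 for spleen over lymph node. IGHV6-6 ran from -1.03 (called, without spleen replicate 2) to -0.18 for spleen over lymph node. Without spleen replicate 2, the signs of IGHV6-3 clonotypes and copies (-0.424 to 1.30) for spleen over lymph node and of IGHV6-6 copies for skin over spleen (-0.697 to 0.0167) also turned. V genes called ran from 2 to 11 for skin over spleen, 0 to 6 for skin over lymph node and 6 to 31 for spleen over lymph node. For spleen over lymph node, IGHV6-6 ran from 3.29 to 7.29 for IgA, -0.928 to 3.06, 4.26 to 5.69 and -7.79 to -6.31 for IGHJ2 to IGHJ4, -0.0303 to 0.0647 for mismatch and -0.0333 to 0.0426 with IgM or IgD only. IGHV6-3 ran from 2.49 to 6.51 for IgA, 4.95 to 6.95 for IGHJ3 and -6.62 to -5.41 for IGHJ4. The IgA calls of both genes were lost without any 1 lymph node replicate. Against other V genes, IGHV6-6 ran from 2.80 to 3.47 for IGHJ3 and -3.74 (called, without spleen replicate 1) to -2.30 for IGHJ4, and IGHV6-3 from -3.23 to -2.25 for IGHJ1 and 2.55 to 3.07 for IGHJ3. The IGHJ3 call of IGHV6-3 was lost without any 1 replicate, and its IGHJ1 call without any 1 other than lymph node replicate 1. IGHV6-6 minus IGHV6-3 ran from 0.134 to 0.219 for mismatch (called without spleen replicate 1), 0.161 to 0.210 with IgM or IgD only and -0.0167 to 0.318 for IgA.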

Other observations

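IGHV6-6 and IGHV6-3 rest on few clonotypes in skin, 7 and 28, so no measure other than their share was tested there. A call between spleen and lymph node by exact permutation needs most V genes at the smallest p of 0.0286, and a measure without calls does not show that the organs act alike. Sequencing error and mutation were not separated, and single-copy clonotypes made up most clonotypes of the deeper replicates. Whether same-numbered tissues came from 1 mouse, and how isotypes came to differ between technical libraries, was not tested.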
